A study of Mus musculus with 4 samples.

Results

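The genes described here are the cytosolic ribosomal protein genes, which encode the proteins of the cytoplasmic ribosome, read in 2 regions of the embryonic mouse heart. They were chosen by symbol alone: Rpl or Rps with digits and at most an ending of a, l, x or y, together with Rplp0, Rplp2 and Rpsa, from probe sets (groups of probes for a transcript) annotated with 1 symbol. The rule left out kinases of ribosomal protein S6 and pseudogenes. It found 45 of the 12393 genes that have such a probe set: 21 of the small subunit, 22 of the large subunit and 2 of the P stalk. Where a gene had several probe sets, the brightest stood for it.

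All tissue came from wild-type C57BL/6 embryos with no transgene or treatment, taken between embryonic days 10.5 and 11.0. Atrioventricular (AV) junctions, where the endocardial cushions form, and ventricular regions were dissected from about 80 hearts, and RNA of each was amplified (230 ng for the AV junction and 250 ng for the ventricular region) and hybridised to 2 Affymetrix MOE430A arrays, called 1a and 1b. Nothing in the labels says that the arrays of a region came from separate pools of hearts, so p-values measure only the spread between arrays, which may be technical. The comparison asks which genes differ between the tissue that makes the cushions and the ventricular wall.

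A ribosome joins a small subunit, which reads the message, to a large subunit, which makes the peptide bond, and nearly every ribosomal protein is present once per particle. The exceptions are the acidic proteins of the P stalk, an arm of the large subunit that recruits the elongation factors. Most messages for ribosomal proteins begin with a C and a run of pyrimidines (the terminal oligopyrimidine or TOP tract), through which mTOR signalling and Larp1 set their translation, and mouse embryos short of some of these proteins have defects limited to certain tissues.

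Where ribosomal protein messages differed between the regions, they were lower in the AV junction. The difference was small for most genes, and Rpl12 stood furthest out, at 2.46-fold lower. Of the 43 genes tested with limma, 11 (25.6%) fell in the AV junction (adjusted p by Benjamini-Hochberg no higher than 0.05), where 6.54% of all 8410 genes tested fell. None of the 43 rose by limma's adjusted p, where 8.47% of all genes rose and 15.0% passed in either direction. At an unadjusted limma p under 0.05, 20 of the 43 were lower and 1 (Rps27) was higher. The share of all genes at that threshold was not counted, so these 2 counts have no background. The median log2 fold (AV junction minus ventricular region throughout) was −0.22 over the 43 genes and −0.06 over all genes tested. The log2 fold was below 0 for 36 of the 43 genes (83.7%) and for 55.2% of all genes. Both AV arrays lay below both ventricular arrays for 26 of the 43, against 34.7% of all genes. They lay above them for 3 of the 43, against 27.7% of all genes. In bulk tissue, fewer cells of a type and less RNA per cell cannot be told apart, and an intensity scaled to its own array shows a share of the RNA rather than an amount.

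The count of 11 rested on all 4 arrays, and fewer of these genes fell when any array was left out. In such fits the lone array of a region is taken to vary like the other pair. Leaving out ventricular array 1b brought the share that fell down to near that of all genes. The log2 fold of Rps27 was then 1.14. The median log2 fold of the 43 genes stayed below that of all genes in each of these fits. With an AV array dropped it was −0.199 against −0.030 (1a) and −0.237 against −0.065 (1b). With a ventricular array dropped it was −0.282 against −0.046 (1a) and −0.148 against −0.061 (1b). The count of 11 also moved with the scaling between arrays. Median scaling of the log2 values left 4 (Rpl12, Rplp2, Rps24 and Rps27l), where 3.40% of all genes fell. It raised the median of all genes from −0.06 to 0.10 and put the ribosomal protein genes at −0.06. Of all calls 80.9% were then higher, against 56.4%. Quantile normalisation left 10, where 5.91% of all genes fell, and made Rpl37a and Rps26 pass as higher, where 7.84% of all genes rose. It put the median of the ribosomal protein genes at −0.058 and that of all genes at −0.008. The number of the 43 genes with a log2 fold below 0 was 25 under quantile normalisation and 27 under median scaling. The share of all genes below 0 was not counted for these 2 settings. The 11 genes that fell kept a negative log2 fold under each of the 18 other settings in which they were tested.

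**Figure D1:**
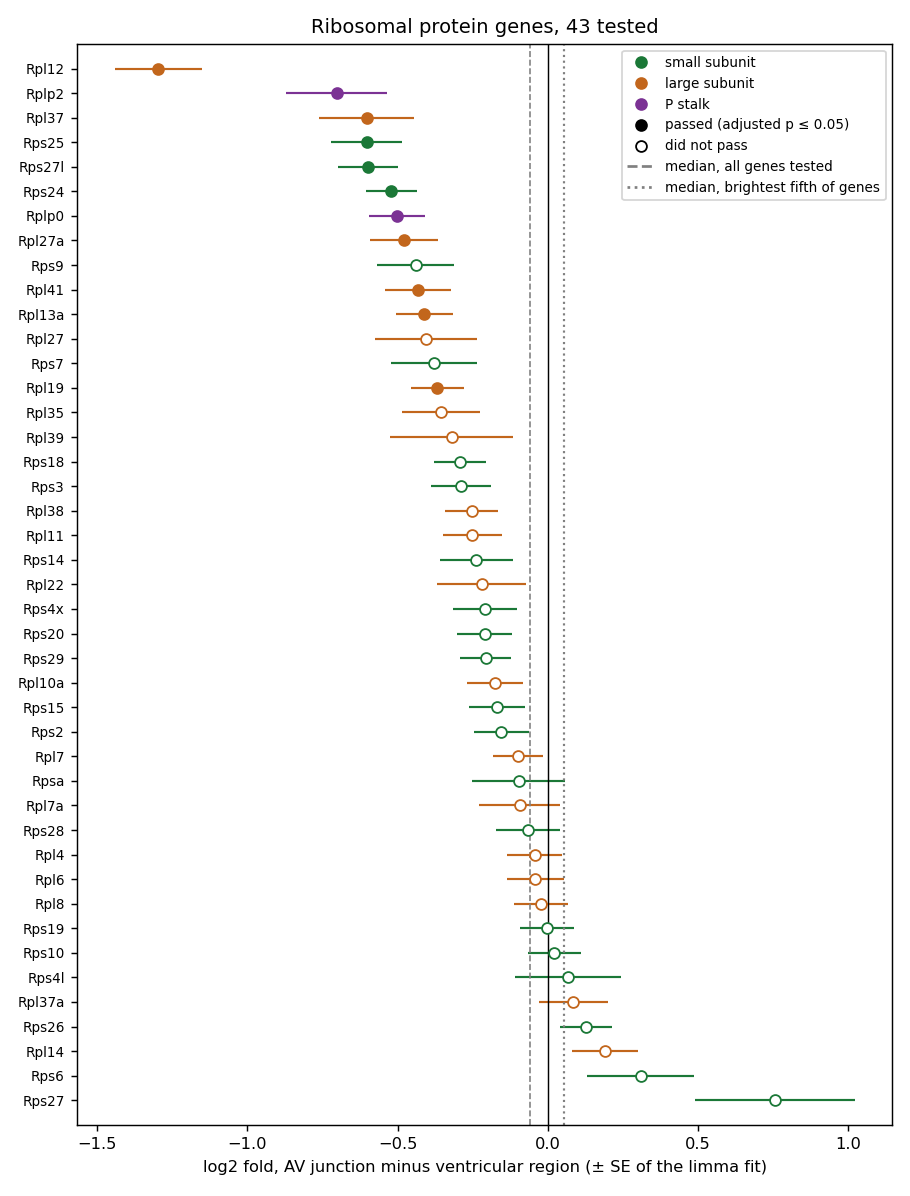
Log2 fold (horizontal axis, AV junction minus ventricular region) of each of the 43 ribosomal protein genes tested, with bars for ± SE of the limma fit and filled points for genes that passed. Points run from −1.30 (Rpl12) to 0.76 (Rps27), and 36 of them lie left of 0; the dashed line at −0.06 marks the median of all genes and the dotted line at 0.055 that of the brightest of 5 groups of genes.

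Most of these genes have bright probe sets, and bright probe sets as a whole lay slightly above 0. When all genes were split into 5 equal groups by brightness, 37 of the 43 were in the brightest group, whose median log2 fold was 0.055, with 16.9% of its genes higher and 11.7% lower. The 37 ribosomal protein genes among them had a median of −0.21, and 8 of them fell. The other 6 genes were dimmer and had a median of −0.46, with 3 that fell (Rpl12, Rpl37 and Rps25). Among all genes below the brightest group the median was −0.09, and 5.26% fell.

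**Figure D2:**
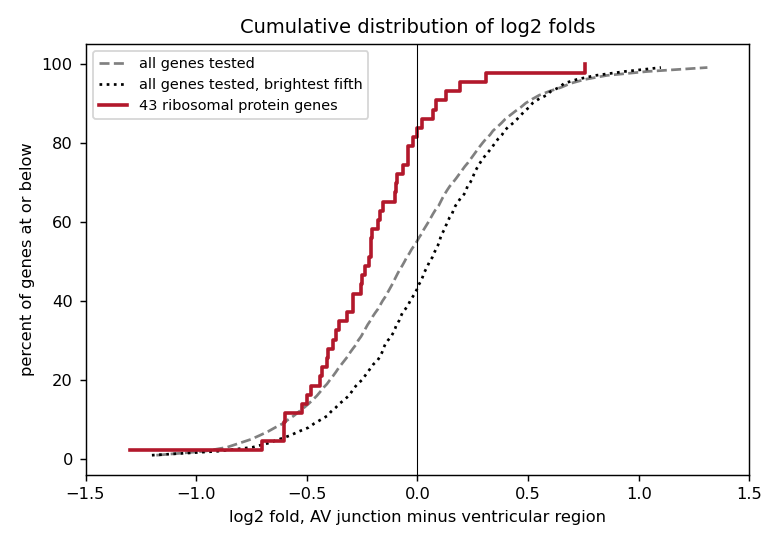
Cumulative percent of genes (vertical axis) at or below each log2 fold (horizontal axis) for the 43 ribosomal protein genes, all 8410 genes tested and the brightest of 5 equal groups of them. With the reported scaling, the curve of the ribosomal protein genes lies to the left over most of its range. Of these genes 83.7% are below 0, against 55.2% of all genes and 43.0% of the brightest group.

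The arrays of a region differed among themselves as well. Measured from each gene's own mean over the arrays, the median log2 deviation of the 43 genes was −0.13 on AV array 1a, −0.05 on AV array 1b, 0.06 on ventricular array 1a and 0.15 on ventricular array 1b. AV array 1a and ventricular array 1b were thus the extremes, and AV array 1b and ventricular array 1a the nearest pair across regions. The median log2 difference across regions ran from −0.14 (AV 1b minus ventricular 1a) to −0.29 (AV 1a minus ventricular 1b). Within a region, 1a minus 1b had a median of −0.07 for the AV pair and −0.11 for the ventricular pair, so the weakest contrast between regions was close in size to the shift between the ventricular arrays. The 1a minus 1b difference had the same sign in both regions for 32 of the 43 genes, and the share of all genes that did so was not counted.

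**Figure D3:**
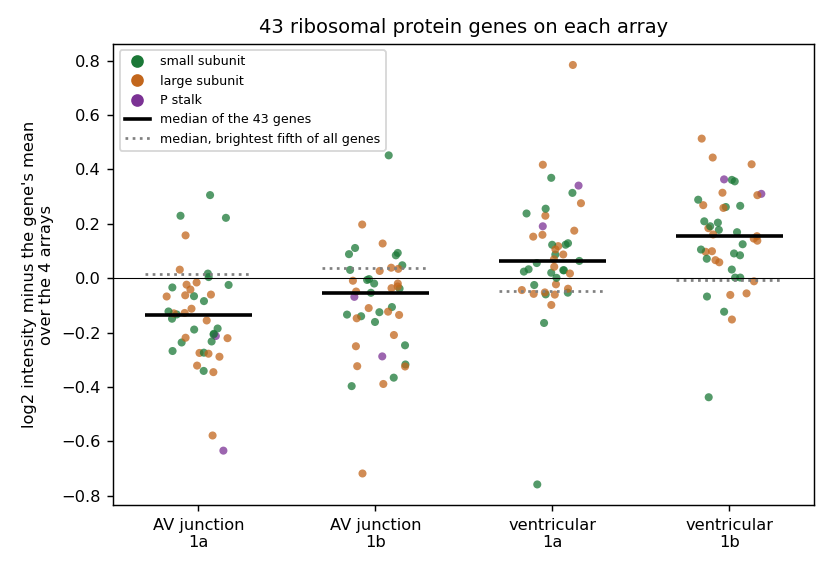
Log2 intensity of each ribosomal protein gene minus that gene's mean over the arrays (vertical axis), on the 2 AV junction and 2 ventricular arrays (horizontal axis), 1 point per gene. The black bars are the medians of the 43 genes, −0.13, −0.05, 0.06 and 0.15 from left to right, and the dotted bars those of the brightest of 5 groups of all genes, which lie between −0.05 and 0.04.

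A long pyrimidine run, for which the family is known, lay near the annotated start of some of these genes and not of others. RefSeq promoters of build GRCm38.p6 were found for 39 of the 45 genes, 7 of them with more than 1 entry. The 30 bases around the annotated start, 15 before it and 15 from it onward, are shown for genes that fell (Rpl12, Rplp2, Rplp0, Rps24, Rps27l, Rpl27a, Rpl13a and Rps25) and for genes that did not pass (Rps27, Rps10 and Rpl7a), since the TOP tract lies here; each reads 5′ to 3′ on the gene's strand, capitals mark its longest run of C and T, and for Rps24 and Rps27l the first of 2 entries is given.
Rpl12, chr2:32961697-32961726, plus strand: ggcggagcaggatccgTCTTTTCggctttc
Rplp2, chr7:141447636-141447665, plus strand: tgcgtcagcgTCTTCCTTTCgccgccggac
Rplp0, chr5:115559452-115559481, plus strand: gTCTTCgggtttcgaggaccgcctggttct
Rps24, chr14:24490663-24490692, plus strand: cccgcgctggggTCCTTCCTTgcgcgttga
Rps27l, chr9:66946071-66946100, plus strand: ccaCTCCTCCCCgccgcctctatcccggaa
Rpl27a, chr7:109519180-109519209, plus strand: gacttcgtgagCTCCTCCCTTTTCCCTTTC
Rpl13a, chr7:45128731-45128760, minus strand: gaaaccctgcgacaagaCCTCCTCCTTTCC
Rps25, chr9:44407699-44407728, plus strand: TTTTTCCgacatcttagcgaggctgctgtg
Rps27, chr3:90213634-90213663, minus strand: atttccgctttcgCTCCTTTCCggcggtga
Rps10, chr17:27635230-27635259, minus strand: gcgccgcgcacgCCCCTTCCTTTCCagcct
Rpl7a, chr2:26910792-26910821, plus strand: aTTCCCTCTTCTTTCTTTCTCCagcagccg

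A run of at least 8 pyrimidines on the gene's strand lay in this window in 18 of the 39 genes (46.2%) and in 13.9% of 27025 mouse genes with a promoter entry. It was in 6 of the 11 genes that fell and in 12 of the 28 others. The run of Rpl12 is 7 bases and that of Rplp0 is 5, both short of this length, while Rpl7a, which did not pass, has 21. Runs of this length were therefore present on both sides of the call. Runs were counted only within the window, so that of Rps25 (7 bases), which continues upstream of the window, was cut at the edge and counted as short. The search took a run anywhere in the window, and some runs, such as that of Rps27l, end before the annotated start. It therefore does not show which messages begin with a TOP tract.

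The motif CCGGAAG, searched on both strands and read as CTTCCGG on the other strand, is the core bound by ETS factors such as Gabpa. It occurred within the 300 bases of the promoter (250 before the start and 50 after) in 20 of the 39 genes (51.3%), against 9.93% of all genes: in 7 of the 11 that fell and 13 of the 28 others. AAGATGG, the core of the Yy1 site, on either strand, was in 6 of the 39 (15.4%) against 7.28% of all genes. TATAAA on the gene's strand, 40 to 16 bases before the start, was in 0 of the 39 against 2.41% of all genes. The searches describe letters in these windows, and binding was not measured. The 60 bases before the start are shown for genes that fell (Rpl41, Rpl19 in the first of its 2 entries, and Rpl37) and that did not pass (Rpl38 and Rps10), with the ETS motif in capitals.
Rpl41, chr10:128549169-128549228, minus strand: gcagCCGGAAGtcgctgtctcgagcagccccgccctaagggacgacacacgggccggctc
Rpl19, chr11:98026650-98026709, plus strand: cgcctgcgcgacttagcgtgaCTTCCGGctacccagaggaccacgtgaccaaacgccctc
Rpl37, chr15:5116553-5116612, plus strand: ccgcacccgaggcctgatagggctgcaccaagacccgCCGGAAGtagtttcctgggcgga
Rpl38, chr11:114668520-114668579, plus strand: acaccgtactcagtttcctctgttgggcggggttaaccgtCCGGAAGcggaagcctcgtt
Rps10, chr17:27635245-27635304, minus strand: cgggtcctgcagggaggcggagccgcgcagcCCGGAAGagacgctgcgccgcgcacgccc

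With each gene read by its brightest probe set, Rpl12 at the base of the stalk and Rplp2 in it had the 2 lowest log2 folds. Dimmer probe sets of Rps24, Rps27l, Rps9, Rpl13a, Rpl41, Rpl35 and Rps10 lay below Rplp2. Rpl12, the large-subunit protein to which the stalk is anchored, read 421 and 377 for the AV arrays against 1161 and 954 for the ventricular arrays (399 ± 30.7 against 1057 ± 146, SD, n = 2 arrays each). Both AV arrays were far below both ventricular arrays. Its log2 fold was −1.30 (SE 0.145, limma adjusted p = 0.0023), from the only probe set it has. Rpl12 passed with each array left out in turn, with adjusted p-values up to 0.0196, and kept its call under each of the 18 other settings, with log2 folds from −1.43 to −1.07. Its start, printed above, carries a 7-base pyrimidine run.

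Rplp2, an acidic stalk protein, read 5534 and 8213 for the AV arrays against 10922 and 11098 for the ventricular arrays. The AV arrays differed more from each other than the ventricular ones, and both lay below them. The log2 fold was −0.70 (SE 0.169, limma adjusted p = 0.0348). Rplp0, the stalk's scaffold, read 3875 and 3676 against 5141 and 5588, again with no overlap. It was 1.41-fold lower (log2 −0.50, SE 0.094, limma adjusted p = 0.0153). Rplp1, the remaining stalk gene, had no probe set of its own symbol alone. Rplp2 passed without AV array 1b (log2 −0.99, limma adjusted p = 0.00624) but not without AV 1a (−0.42, 0.0755), ventricular 1a (−0.715, 0.12) or ventricular 1b (−0.69, 0.125). Rplp0 passed without AV array 1a (0.0452) and had limma adjusted p-values of 0.0666, 0.0531 and 0.0907 without AV 1b, ventricular 1a and ventricular 1b. Setting Rpl12 beside the stalk was done after its values were seen.

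Of the 21 small-subunit genes, 3 fell (14.3%, against 6.54% of all genes) and 18 did not pass, with a median log2 fold of −0.21. Rps25, needed for initiation at certain internal ribosome entry sites, read 947 and 822 for the AV arrays against 1377 and 1353 for the ventricular arrays. The ventricular arrays lay close together and above both AV arrays. The log2 fold was −0.60 (SE 0.118, limma adjusted p = 0.0176), and the adjusted p was 0.0686 without AV 1b, 0.0876 without ventricular 1a and 0.0779 without ventricular 1b. Rps24, a protein of the small subunit's body that is mutated in some families with Diamond-Blackfan anaemia, read 5117 and 5215 against 7408 and 7462. Replicate arrays of Rps24 nearly coincided, and the regions were 1.44-fold apart (log2 −0.52, SE 0.085, limma adjusted p = 0.0096). Without ventricular array 1a or 1b its adjusted p was 0.0561 or 0.0584.

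The third, Rps27l, is a paralogue of Rps27 and a target of p53. It read 3409 and 3104 for the AV arrays against 4743 and 5171 for the ventricular arrays, with no overlap. The log2 fold was −0.60 (SE 0.099, limma adjusted p = 0.00999), and among the fits with an array left out it missed the threshold without ventricular array 1b, at 0.065. Rps27 itself read 294 and 330 for the AV arrays against 114 and 228 for the ventricular arrays. Its ventricular arrays lay far apart and both below the AV arrays. The reading of 114 on ventricular array 1a was near that array's brightest Bacillus subtilis control probe set, at 97.9. The log2 fold of Rps27 was 0.76 (SE 0.267, limma adjusted p = 0.102) and did not pass. It was 1.14 without ventricular array 1b, a fit that rests on that dim reading, and 0.38 without ventricular array 1a. The members of this pair had opposite signs, and the difference between them was not tested.

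Other small-subunit genes lay just short of the threshold or at no difference. Rps9, which sits where the message enters, read 3996 and 3485 against 5638 and 4578 (log2 −0.44, SE 0.127, limma adjusted p = 0.0595). Rps18, of the subunit's head, read 27273 and 28806 against 33775 and 34873 (log2 −0.29, SE 0.086, limma adjusted p = 0.064). In both, the arrays of the regions did not overlap, and Rps9 passed at −0.43 and 0.0441 with the values as deposited. Rps19, the gene most often mutated in Diamond-Blackfan anaemia, read 2796 and 2775 against 2790 and 2792. Its arrays overlapped, with a log2 fold of −0.003 (SE 0.091). Rps6, the substrate of the S6 kinases, read 2354 and 2142 against 2204 and 1472, with overlap (log2 0.31, SE 0.178, limma adjusted p = 0.273). Rpsa, also known as the laminin receptor, read 24285 and 29532 against 24696 and 33207, where arrays of the same region differed more than the regions did (log2 −0.10, SE 0.156). The ubiquitous Rps4x had a log2 fold of −0.21 (SE 0.107) and its paralogue Rps4l one of 0.07 (SE 0.177), and neither passed.

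The other 10 small-subunit genes, none of which passed, had log2 folds from −0.38 (Rps7) to 0.13 (Rps26). Rps3, a protein at the message's entry that also acts in DNA repair, read 26924 and 30566 for the AV arrays against 33696 and 36558 for the ventricular arrays (log2 −0.29, SE 0.100). Rps7 read 22967 and 28341 against 29599 and 37264 (log2 −0.38, SE 0.143). Rps14, the gene lost in the human 5q− syndrome, read 23938 and 29445 against 29419 and 33335 (log2 −0.24, SE 0.122). The AV arrays lay below the ventricular arrays for Rps3 and Rps7 and overlapped them for Rps14, where AV array 1b matched ventricular array 1a. Rps26, which contacts the message upstream of the start codon, read 14339 and 15309 against 13595 and 13522, with both AV arrays above (log2 0.13, SE 0.086). Rps10 read 11052 and 11623 against 10836 and 11497, and the regions overlapped (log2 0.02, SE 0.088). By their brightest probe sets, Rps2, Rps15, Rps20 and Rps29 also read lower on both AV arrays, with log2 folds of −0.15, −0.17, −0.21 and −0.21. The arrays overlapped for Rps28 (−0.065). Rps14, Rps15 and Rps29 each have another probe set with a positive log2 fold, given below.

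Of the 20 large-subunit genes tested, 6 fell (30%, against 6.54% of all genes) and 14 did not pass, with a median log2 fold of −0.25. Besides Rpl12 these were Rpl37, Rpl27a, Rpl41, Rpl13a and Rpl19. Rpl37, a zinc-binding protein, read 334 and 322 for the AV arrays against 470 and 583 for the ventricular arrays (log2 −0.60, SE 0.159, limma adjusted p = 0.0462). Rpl27a read 1404 and 1244 against 1778 and 1951 (log2 −0.48, SE 0.114, limma adjusted p = 0.0338). Rpl41, a very short basic peptide at the interface of the subunits, read 20402 and 23631 against 27679 and 31723 (log2 −0.43, SE 0.111, limma adjusted p = 0.0433). In all 3 genes the AV arrays lay below the ventricular arrays.

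Rpl13a, which can leave the ribosome to silence the translation of inflammatory messages, read 16109 and 17753 against 21684 and 23335 (log2 −0.41, SE 0.094, limma adjusted p = 0.0299). Rpl19, which forms a bridge between the subunits, read 8973 and 9431 against 12264 and 11505 (log2 −0.37, SE 0.088, limma adjusted p = 0.0348). The arrays of the regions did not overlap for either gene. None of these last 5 genes passed with any array left out, whichever array it was. The limma adjusted p-values then ran from 0.0749 to 0.202 for Rpl37, from 0.051 to 0.15 for Rpl27a, from 0.0691 to 0.21 for Rpl41, from 0.07 to 0.155 for Rpl13a and from 0.0919 to 0.167 for Rpl19.

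Among large-subunit genes that did not pass, Rpl38, whose loss in mice alters the translation of Hox messages and the body pattern, read 21181 and 21275 against 24318 and 26332. The AV arrays were nearly equal and lay below both ventricular arrays (log2 −0.25, SE 0.088, limma adjusted p = 0.0983). Rpl10a, of the stalk near the exit site for transfer RNA, read 13832 and 14611 against 15300 and 16907 (log2 −0.18, SE 0.093, limma adjusted p = 0.233). Rpl22, which has the paralogue Rpl22l1, read 1951 and 1596 against 2320 and 1833 with overlap (log2 −0.22, SE 0.148). Rpl11, which with Rpl5 can bind and inhibit Mdm2, read 3493 and 3104 against 3874 and 3983 (log2 −0.25, SE 0.099, limma adjusted p = 0.133). Rpl14 was the large-subunit gene with the highest log2 fold, 0.19 (SE 0.110, limma adjusted p = 0.272).

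The rest of the large subunit did not pass either. Rpl27 read 4767 and 3669 for the AV arrays against 6452 and 4781 for the ventricular arrays (log2 −0.405, SE 0.171, limma adjusted p = 0.155). Its highest AV value lay just under its lowest ventricular value, and the arrays of each region were far apart. Rpl39, which lines the exit tunnel, read 339 and 415 against 394 and 585 with overlap (log2 −0.32, SE 0.205, limma adjusted p = 0.32). Rpl7a, with the longest pyrimidine run of those printed above, read 13264 and 16897 against 14827 and 17215, so the arrays of a region differed more than the regions (log2 −0.09, SE 0.134). Rpl8, at the heart of the large subunit, read 13109 and 14042 against 13261 and 14315 (log2 −0.02, SE 0.091). Rpl6 and Rpl7 had log2 folds of −0.04 and −0.10, and Rpl37a, read at 20967 and 25996 against 22314 and 21718, one of 0.085 (SE 0.115).

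Of 4 tested genes whose proteins lie along or at the mouth of the peptide exit tunnel (Rpl4, Rpl19, Rpl35 and Rpl39), 1 fell, Rpl19, where 6.54% of all genes did, and the median log2 fold was −0.34. Rpl4 was near 0 (log2 −0.04, SE 0.091). Of 10 tested genes mutated in Diamond-Blackfan anaemia, 1 fell, Rps24, a share near that of all genes, and the median was −0.14, with log2 folds from −0.52 to 0.76. Whether either list differs from the other ribosomal protein genes was not tested.

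Rpl3l and Rpl39l could not be tested because their mean intensity was under 100. Rpl3l, which replaces Rpl3 in mature striated muscle, read 9.05 and 7.37 for the AV arrays against 6.04 and 5.03 for the ventricular arrays. All 4 values lay below the brightest Bacillus subtilis control probe set of their array, a sequence mouse RNA should not match (58.6 and 52.6 for the AV junction, 97.9 and 104 for the ventricular region). Rpl39l, a paralogue known from the testis, read 98.2 and 79.4 against 128 and 56.0, so 1 of its 2 ventricular arrays lay below that control.

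Further probe sets of the same genes gave a second reading of the same RNA. Of 96 probe sets for the 45 genes, 85 were bright enough to test; 26 of them were lower in the AV junction, where 6.58% of all 13403 probe sets tested were. None was higher by limma's adjusted p, where 7.24% of all probe sets were. At an unadjusted limma p under 0.05, 41 of the 85 were lower and 2 higher, and the share of all probe sets at that threshold was not counted. Of the 18 genes with more than 1 tested probe set, 12 had negative log2 folds in every one and 6 had both signs.

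All 5 tested probe sets of Rps24 fell, with log2 folds from −0.49 to −1.32. The steepest read 217 and 220 for the AV arrays against 693 and 557 for the ventricular arrays (limma adjusted p = 0.00335). All 3 probe sets of Rps27l fell, the other pair by more than the one that stands for the gene (log2 −1.01 and −0.975). For Rpl41 and Rpl13a, 3 of 4 probe sets fell and the others, at −0.66 and −0.285, did not pass (limma adjusted p = 0.0632 and 0.0655). Size thus varied between probe sets of a gene while the sign held in these 4 genes.

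In 3 genes another probe set fell where the brightest did not pass. For Rpl35, near the exit of the tunnel, the brightest read 18264 and 23069 against 24668 and 27980 (log2 −0.36, SE 0.129, limma adjusted p = 0.11), and 3 of its other 5 fell (−0.44, −0.47 and −0.765). For Rps9 a dim probe set reading 165 and 133 against 326 and 312 fell (log2 −0.90, limma adjusted p = 0.0224). For Rps20 the brightest had a log2 fold of −0.21 (limma adjusted p = 0.165) and another −0.34 (0.0379). In the opposite direction, a second probe set of Rps15 had a log2 fold of 0.475 with AV arrays at 499 and 977, and it did not pass (limma adjusted p = 0.272). Another probe set of Rps14, nearly as bright, had both AV arrays above both ventricular arrays (log2 0.149, limma adjusted p = 0.259). Another of Rps29, of similar brightness, had a log2 fold of 0.166 with overlap (limma adjusted p = 0.412), and its remaining probe set one of −0.076.

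Ribosomal protein genes have many near-identical processed pseudogenes, and probe sets ending in _x_at hold probes that match other sequences too. Of the 11 genes that fell, 4 (Rps24, Rpl13a, Rpl37 and Rpl41) were represented by such a probe set, 5 by one ending in _at and 2 by one ending in _a_at, whose probes match variants of the same gene. By ending, 15 of 38 tested _x_at probe sets fell, 4 of 25 _a_at, 7 of 20 _at and 0 of 2 _s_at. Of all probe sets tested, whatever their ending, 6.58% fell. Without the _x_at and _s_at probe sets, 10 of 38 genes fell, where 6.19% of all genes did. Of the 10, 8 were among the 11, with Rpl35 and Rps9 added. A further 102 probe sets carry several symbols that include a ribosomal protein gene and name no gene here. Of these, 96 were tested and 29 were lower (30.2%, against 6.58% of all probe sets), and the median log2 fold was −0.21.

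**Figure D4:**
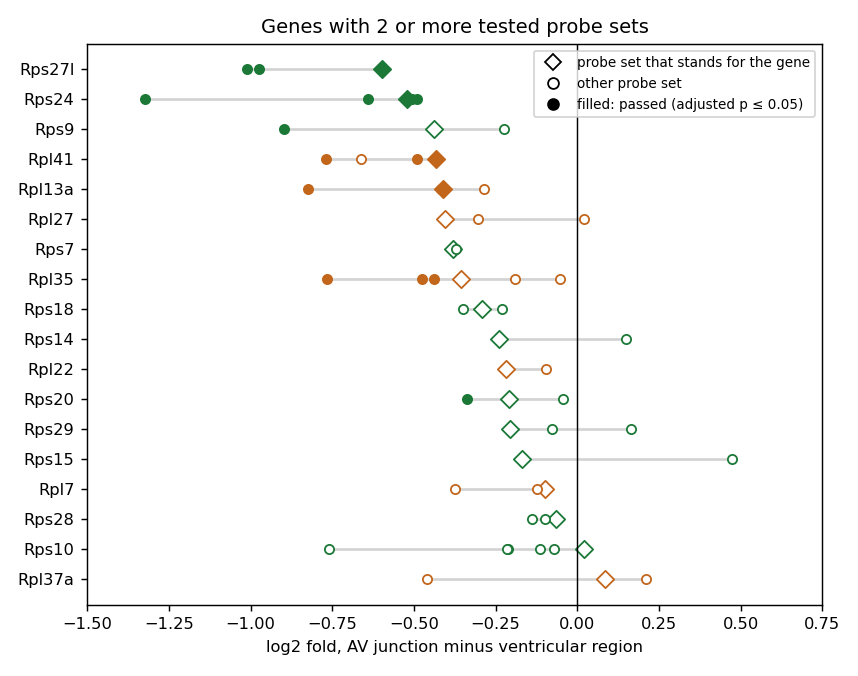
Log2 fold (horizontal axis) of every tested probe set of the 18 genes with more than 1, with a diamond for the probe set that stands for the gene, circles for the others and filled marks for those that passed. In 12 genes each mark lies left of 0, and filled marks are all at or below −0.34, down to −1.32 for Rps24.

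Few genes that build the ribosome passed. Of 51 tested ribosome biogenesis factors, 3 fell (5.88%, near the 6.54% of all genes), 2 rose and 46 did not pass, and the median log2 fold was −0.085. Ebna1bp2, which processes large-subunit RNA, read 252 and 378 for the AV arrays against 1052 and 553 for the ventricular arrays (log2 −1.18, SE 0.293, limma adjusted p = 0.0383). Las1l, part of the complex that cuts the spacer between the large-subunit RNAs, read 524 and 792 against 1146 and 1118 (log2 −0.765, SE 0.183, limma adjusted p = 0.0344). Nop56, a core protein of box C/D small nucleolar particles, read 1786 and 2101 against 2781 and 2828 (log2 −0.52, SE 0.110, limma adjusted p = 0.0228). The arrays of the regions did not overlap in any of the 3. Xpo1, which exports both subunits from the nucleus, read 6788 and 6977 against 5216 and 4404 (log2 0.52, SE 0.106, limma adjusted p = 0.0204). Gar1, of the box H/ACA particles and named after its values were seen, read 2709 and 2873 against 2114 and 2020 (log2 0.42, SE 0.097, limma adjusted p = 0.0296). With an array left out, the count that fell ran from 0 to 4 and the count that rose from 0 to 1: without AV array 1a they were 0 and 0, without ventricular array 1a 0 and 1, and without ventricular array 1b 1 and 0.

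In the RNA polymerase I and 5S gene machinery, 1 of 14 tested genes fell and 1 rose, with a median log2 fold of −0.21. These shares (7.14% each) were near the 6.54% of all genes that fell and the 8.47% that rose. Gtf3a, the factor that directs transcription of the 5S ribosomal RNA genes, read 313 and 317 against 745 and 824 (log2 −1.19, SE 0.137, limma adjusted p = 0.00238) and passed with each array left out. Polr1d, a subunit shared by RNA polymerases I and III, read 775 and 815 against 532 and 558 (log2 0.505, SE 0.124, limma adjusted p = 0.0374), and it did not pass with any array left out. The AV arrays were all below the ventricular ones for the former and all above for the latter.

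Other messages with a TOP tract were close to no difference. Of 23 tested, 1 fell (Snhg1, 4.35%, against 6.54% of all genes) and 22 did not pass, and the median log2 fold was −0.03. Snhg1, a host transcript of small nucleolar RNAs, read 3691 and 2986 against 5733 and 5577 (log2 −0.76, SE 0.117, limma adjusted p = 0.00791). Eef1a1, the elongation factor that brings transfer RNA to the ribosome, read 27436 and 34529 against 28321 and 34115 (log2 −0.01, SE 0.138). Whether the ribosomal protein genes differ from these messages was not tested. Of 17 tested regulators of ribosomal protein synthesis, 2 fell (11.8%, against 6.54% of all genes), with a median of −0.23. Eif4ebp1, the mTOR-controlled repressor of cap-dependent translation, read 4766 and 4404 against 5709 and 6436 (log2 −0.40, SE 0.101, limma adjusted p = 0.0402). Pim1, a kinase that promotes translation, read 395 and 365 against 586 and 636 (log2 −0.62, SE 0.139, limma adjusted p = 0.0278), and neither passed with any array left out.

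Among 3 tested ribosomal protein genes that the symbol rule does not reach, Rpl22l1 fell, reading 1063 and 952 against 1634 and 1611 (log2 −0.66, SE 0.111, limma adjusted p = 0.0103). Its AV arrays lay below its ventricular arrays, and 2 of the 4 fits with an array left out passed. Rpl7l1, a paralogue of Rpl7 with a role in ribosome assembly, read 1233 and 1198 against 993 and 952 (log2 0.31, SE 0.109, limma adjusted p = 0.103). Fau, which encodes a ubiquitin-like protein fused to Rps30, had a log2 fold of −0.14 (SE 0.105).

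The tissues differed in their cell types along the same contrast. Cushion mesenchyme markers were higher in the AV junction for 11 of 14 genes tested, and chamber muscle markers lower for 11 of 16, in the direction of the regions' labels. Erythroid markers were lower in the AV junction for 8 of 12, with a median log2 fold of −1.14, and their summed intensity was 41943 to 43161 on the AV arrays and 78970 to 86272 on the ventricular arrays. The summed chamber muscle markers read 122103 to 125209 against 213896 to 227715. Hepatic and yolk sac markers were higher for 5 of 6 tested, with sums of 7712 to 8110 against 702 to 855. Endothelial and endocardial markers went both ways, with Tek (log2 0.98) and Nfatc1 (1.38) higher and Egfl7 (−1.095) lower of 10 tested, and of 5 tested epicardial markers Krt19 (−0.85) was lower. On all 4 arrays Epb42 (erythroid), Fgb (hepatic), Pecam1 and Tie1 (endothelial) and Msln (epicardial) were at or below background, while others of the same lists, such as Cdh5, Kdr, Wt1 and Tcf21, were above it. The 3′/5′ intensity ratio, a measure of how far amplified RNA reaches, was 21.7 and 23.4 for actin for the AV arrays against 16.6 and 21.7 for the ventricular arrays, and for Gapdh 16.3 and 15.0 against 17.4 and 18.4. The part of red cells, muscle or RNA quality in the ribosomal protein result was not tested. All 4 arrays came from 1 chip lot and 1 hybridisation day.

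The number of these genes called moved with the processing. The count that fell was 10 to 12 under quantile normalisation, cyclic loess, the values as deposited, either other pseudocount, a floor of 300 and the 3 other treatments of probe sets. In those settings 5.91% to 10.4% of all genes fell. The count was 5 of 45 with no intensity floor, where 2.17% of all genes fell. When the variance was not allowed to follow intensity it was 1 of 43 (Rpl12), a share near the 2.485% of all genes. The median log2 fold of the ribosomal protein genes lay below that of all genes in every setting plotted.

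**Figure D5:**
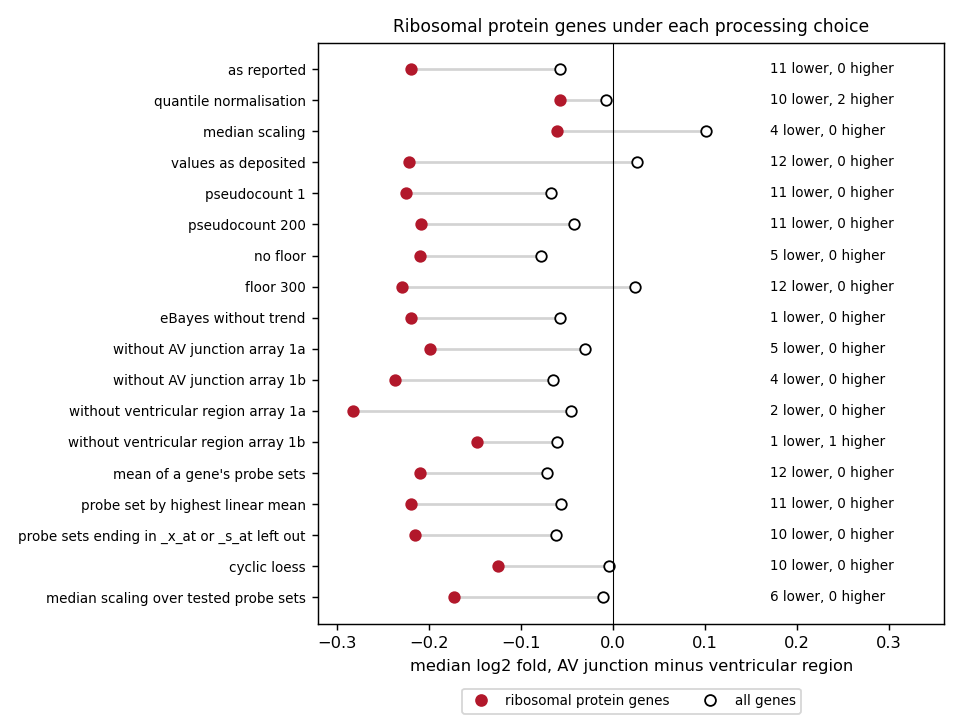
Median log2 fold (horizontal axis) of the ribosomal protein genes tested and of all genes under the reported processing and 17 other settings (rows), with the number of ribosomal protein genes that passed in each direction at the right; the fit with a replicate block, which called more of them, is not drawn. In the settings drawn, the median of the ribosomal protein genes runs from −0.28 (without ventricular array 1a) to −0.06, and the count that fell from 1 to 12.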

How the data were processed

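The deposited table holds a linear-scale intensity per probe set and array, for which the submitters' processing notes name MAS5 (its version is not given in the sources used here). Every array was first brought to a trimmed mean of 500 (2% off each end) across 22626 probe sets other than controls, by factors of 3.351 to 3.354. Of these, 13403 with a mean of at least 100 were tested on log2(intensity + 50) with limma 3.58.1 (lmFit, eBayes with trend) in R 4.3.3, comparing the regions with no covariate (7.43 total degrees of freedom). Benjamini-Hochberg adjustment ran over all 13403, with 0.05 as the limit. Fold changes include the added 50, which understates those of dim genes. The test was tried on simulated arrays, where the share of false calls exceeded the limit set and most small changes were missed. The number of arrays, 2 per region, limits the precision.

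A gene took its brightest probe set with 1 symbol (20380 of the 22626 have 1, 691 several and 1555 none). Intensities picked the probe set of a gene and sorted genes into 5 brightness groups, but do not rank genes by amount of RNA. Named were all genes of the rule that passed, those of the role lists, 7 chosen by name, those whose probe sets disagree, those below background, and up to 4 passing genes per pathway list. Others (Rps2, Rps3, Rps9, Rps14, Rps15, Rps18, Rps20, Rpl6, Rpl7, Rpl7a, Rpl8, Rpl14, Rpl37a) were picked after their values were seen. The genes, lists and tests were chosen with earlier results of these data known. The titles use the letters 1a and 1b in both regions, and no label says what they mark. The 1a minus 1b differences of the regions correlated at 0.056 over all tested probe sets, so the letters were taken as names only. That difference nevertheless shared its sign between regions for 32 of the 43 genes, a count with no share over all genes beside it. Promoters are RefSeq's. Experiment records were read for batches only. Alternatives changed 1 choice at a time, except that unscaled deposited values also weigh the floor and the added 50 more heavily. Figures used matplotlib 3.10.9 in Python 3.11.15.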

Additional observations from a re-analysis of the deposited data

How the results depend on the processing

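With 2 arrays per region, many small differences may be missed, and dim probe sets such as those of Rpl3l gave no fold. All counts are of genes passing limma's adjusted p, as lower and higher, where the reported values were 11 and 0 ribosomal protein genes, 550 and 712 of all genes and 3 and 2 biogenesis factors. Ribosomal protein genes that fell numbered 4 with median scaling, where 3.40% of all genes fell, and 5 with no floor, where 2.17% did. Median scaling over the tested probe sets (chosen after seeing the data, as was cyclic loess) left 6, where 5.22% of all genes fell. Without the trend 1 fell, near the 2.485% of all genes. Under the replicate block 24 fell, where 10.1% of all genes did, and 1 (Rps27) was higher, where 11.4% were. Under quantile normalisation 2 were higher, where 7.84% of all genes were. Their median log2 fold of −0.22 became −0.06 under quantile normalisation (−0.058) and median scaling (−0.061) and −0.125 under cyclic loess. All genes numbered 286 lower and 1208 higher with median scaling (80.9% of calls higher, against 56.4%). They numbered 269 and 438 with no floor, 209 and 243 without the trend, and 852 and 960 under the replicate block. Biogenesis factors that fell numbered 5 under quantile normalisation, the deposited values, a floor of 300 and cyclic loess (1 higher), 6 under the replicate block, 0 (0 higher) with no floor and without the trend, and 1 (1 higher) without _x_at and _s_at probe sets. With each array left out, ribosomal protein genes ran from 1 to 5 lower and 0 to 1 higher with medians of −0.282 to −0.148, all genes from 167 to 313 lower and 299 to 368 higher, and biogenesis factors from 0 to 4 lower and 0 to 1 higher. The 24 under the replicate block include the 11; the letters were taken as names only, and whether they mark a shared step was not tested. None of the 11 genes that fell changed sign under these settings. Genes that did not pass and changed sign had these log2 folds: under quantile normalisation, Rps28 0.154, Rps14 0.010, Rpsa 0.171, Rps2 0.048, Rps29 0.010, Rps20 0.006, Rps4x 0.005, Rpl7a 0.043, Rpl8 0.074, Rpl6 0.040 and Rpl4 0.004; under median scaling, Rps28 0.093, Rpsa 0.062, Rps2 0.005, Rpl7a 0.065, Rpl8 0.136, Rpl7 0.058, Rpl6 0.117, Rpl4 0.114 and Rps19 0.155; under cyclic loess, Rps28 0.099, Rpsa 0.050, Rpl8 0.055, Rpl6 0.025 and Rpl4 0.006; under median scaling over tested probe sets, Rpl8 0.024, Rpl6 0.005, Rpl4 0.002 and Rps19 0.043; and with probe sets averaged per gene, Rpl37a −0.055, Rps10 −0.225 and Rps15 0.153. With each array left out, log2 folds ran from −0.182 to 0.051 for Rps28, −0.310 to 0.117 for Rpsa, −0.268 to 0.081 for Rpl7a, −0.077 to 0.033 for Rpl8, −0.119 to 0.037 for Rpl6, −0.119 to 0.031 for Rpl4, −0.127 to 0.263 for Rps4l, −0.070 to 0.239 for Rpl37a, −0.020 to 0.065 for Rps10 and −0.008 to 0.002 for Rps19. The cause of these changes was not tested.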
